A study of Mus musculus with 18 samples.

Results

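Livers of SIRT1-/- mice fed ad libitum (AL) were compared with livers of SIRT1+/- mice on the same diet. The members were chosen by the sample labels alone, as the AL libraries of these 2 genotypes, and number 6 of the 18 liver libraries of the series. The 4 SIRT1-/- libraries came from mice homozygous for the Sirt1 knockout and the 2 SIRT1+/- libraries from heterozygous mice, all labelled C57BL/6J. Per the labels the mice of both groups were male, entered the diets at 2 to 5 months of age and were killed at 13 to 16 months. The supplement of the study gives male/female mice and an age of 3 to 5 months at the start of the diets. The other libraries used here were 3 AL SIRT1+/+, 3 CR SIRT1-/- and 3 CR SIRT1+/- livers, where CR is a 40% calorie restriction.

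SIRT1 is a nuclear enzyme that removes acetyl groups from histones and from transcription factors and consumes NAD in doing so. In liver it is known to act on regulators of gluconeogenesis, fatty acid oxidation, lipid synthesis and bile acid metabolism. Rodent liver is also strongly sexually dimorphic: the pulsed growth hormone secretion of males, with androgens, maintains a set of male-biased transcripts that includes P450 enzymes, urinary proteins and steroid dehydrogenases, and the more continuous secretion of females maintains a female-biased set.

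Each library was read on 1 Illumina MouseRef-8 v2 array, and levels are scaled log2 signals, in which 0 is the mean of all probes of an array. Each array was scaled to a common spread, a log2 SD of 1.84, while the log2 SD of the 6 arrays ran from 1.70 to 1.91. A unit is thus close to a doubling of signal but not exactly one, and folds refer to the scaled signal. In the 6 libraries, 10726 to 11386 of 25697 probes were detected (detection p under 0.05, the share of negative control beads at least as bright), and median signals ran from 59.4 to 78.8 intensity units. The number of arrays limits the precision. The median standard error of the difference between the groups was 0.189 on the log2 scale.

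Several libraries went against their labels or stood apart. Xist, the long noncoding RNA that silences one X chromosome in females, had levels of -0.97, 2.03, 2.16 and -1.01 in AL SIRT1-/- replicates 1 to 4, and of -1.02 and -0.82 in the SIRT1+/- replicates. It was detected in SIRT1-/- replicates 2 and 3 only. The Y-linked translation factor gene Eif2s3y had levels of 1.56, -1.44, -1.46 and 2.45 in SIRT1-/- livers, against 1.71 and 1.94 in SIRT1+/- livers, and was detected in the other 4 libraries. The SIRT1-/- group thus held 2 libraries with Xist and 2 with Eif2s3y, while both SIRT1+/- libraries had Eif2s3y. With this split genotype and the sex signature are partly mixed, and the main counts are also given for the libraries with Eif2s3y alone. The group of SIRT1-/- replicate 1 was in doubt as well, because the Z values tabulated by the study for single genotypes could mostly be recomputed from the deposited scores only with this library counted as SIRT1+/-. The supplement gives 2 to 4 mice per group for the arrays, and the labels give 4 SIRT1-/- and 2 SIRT1+/- AL livers. The label of replicate 1 was kept. SIRT1-/- replicate 4 correlated at 0.94 to 0.949 with the other 5 libraries over the genes tested, which correlated at 0.969 to 0.986 among themselves, and it was highest in the neutrophil transcript S100a8 (3.44, against 0.71 to 1.55 in the other SIRT1-/- livers).

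The targeted gene was examined first. The Sirt1 probe had levels of 0.92, 1.13, 0.89 and 1.23 in SIRT1-/- livers and of 0.86 and 0.96 in SIRT1+/- livers. The groups overlapped, and the difference of 0.13 (standard error 0.22) was not called (limma adjusted p = 0.954). An exact permutation test, two-sided, gave p = 0.4, where the 15 rearrangements allow no p below 0.0667. The probe's place relative to the deletion was not determined, and its level therefore says nothing about the genotypes. By RT-qPCR and Western blotting of liver, the study reports SIRT1 mRNA and protein falling in proportion to genotype on both diets.

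Of 8950 genes tested, limma called 22 at a Benjamini-Hochberg adjusted p under 0.05, a background of 0.246% of genes. Of these, 2 were higher in SIRT1-/- livers (0.0223%) and 20 were lower (0.223%). Without adjustment, 322 genes were higher and 287 lower at a p under 0.05 (6.8% in both directions). The libraries of the 2 groups did not overlap for 861 genes on the higher side (9.62%) and 616 on the lower side (6.88%), the 22 called genes among them. The median difference over all genes was 0.04. Of the 20 lower genes, 8 were not detected in any SIRT1-/- library, and all 20 were detected in both SIRT1+/- libraries. In bulk tissue, fewer cells of a type and less RNA per cell cannot be told apart. In the libraries with Eif2s3y (2 SIRT1-/- and 2 SIRT1+/-), 3 genes were higher and 22 lower, and 9 of these 25 were among the 22. The other 16 included the P450 gene Cyp2f2, the male-biased Cyp2d9 and Mup5 and the acute-phase gene Saa4 on the lower side and the female-biased Slc22a26 on the higher side.

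**Figure D1:**
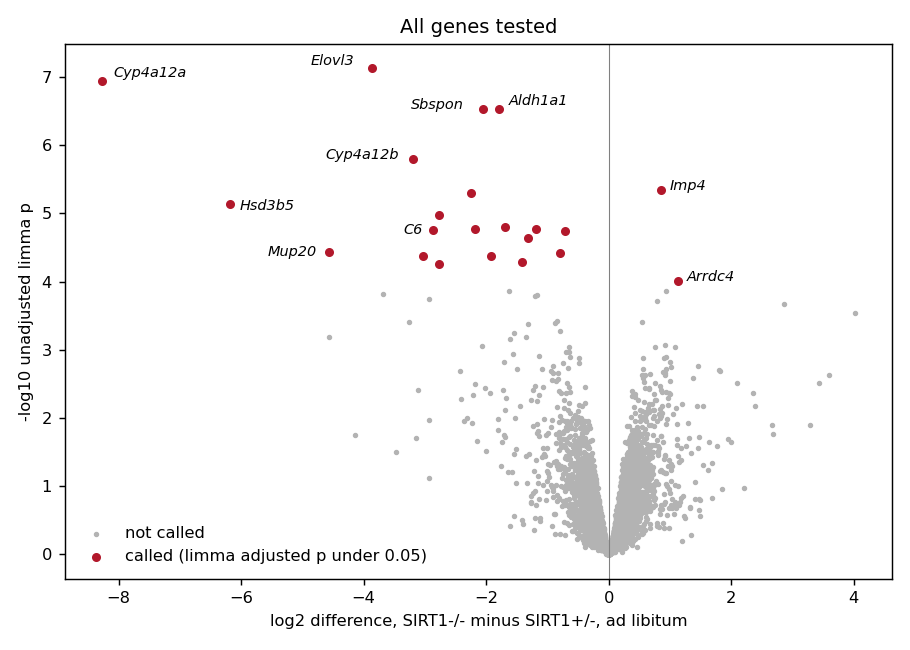
Difference between SIRT1-/- and SIRT1+/- livers on the AL diet (x, log2 scale) against the unadjusted limma p (y, minus log10) for 8950 genes, each point 1 gene, with the 22 called genes in red. Of the called genes, 20 lie left of 0 (lower in SIRT1-/-) and 2, Imp4 and Arrdc4, lie right of it.

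The largest falls among called genes were in male-biased liver transcripts. Cyp4a12a, a fatty acid hydroxylase, had levels of -0.81, -1.17, -1.24 and -1.04 in SIRT1-/- livers, against 7.01 and 7.39 in SIRT1+/- livers. It was detected in 0 of 4 SIRT1-/- and 2 of 2 SIRT1+/- libraries and was at least 223-fold lower (adjusted p = 0.000511, limma). A bound of this kind sets the brighter group's mean against the lowest level at which a probe of each array is detected. On signals not scaled by the array SD the bound was 165-fold. Its close paralog Cyp4a12b was at -1.24, -1.26, -1.03 and -1.43 in SIRT1-/- livers, against 1.32 and 2.61 in SIRT1+/- livers, at least 5.93-fold lower (adjusted p = 0.00283). Probes of such near-identical genes can bind each other's transcript, so the pair may not be independent.

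Hsd3b5, a steroid dehydrogenase of male mouse liver, had levels of -0.70, -1.08, -1.12 and -0.86 in SIRT1-/- livers, against 4.69 and 5.78 in SIRT1+/- livers, and was at least 57.2-fold lower (adjusted p = 0.0082, limma), or 45.7-fold on unscaled signals. Elovl3, an elongase of very long chain fatty acids, was at -1.38, -1.28, -1.16 and -1.44 in SIRT1-/- livers, against 2.63 and 2.47 in SIRT1+/- livers, at least 8.89-fold lower (adjusted p = 0.000511). Both genes were undetected in all 4 SIRT1-/- libraries, those with Eif2s3y and those with Xist alike. Obp2a, a lipocalin outside the male-biased list, was at -0.83, -0.66, -0.87 and -0.76 in SIRT1-/- livers, against 3.04 and 0.94 in SIRT1+/- livers. Its fall was at least 6.05-fold (adjusted p = 0.0233), and the SIRT1+/- libraries were further apart than for Hsd3b5 or Elovl3.

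Mup20, a major urinary protein that acts as a male pheromone, differed within the SIRT1-/- group. Its levels were 1.04, -0.25, -1.26 and 0.90 in SIRT1-/- livers, against 4.88 and 4.46 in SIRT1+/- livers, a fall by 4.56 (standard error 0.80, adjusted p = 0.0198, limma). The 2 SIRT1-/- libraries with Eif2s3y were above the 2 with Xist. The same order held for Susd4, a complement regulator, with -0.08, -1.01, -0.94 and -0.18 in SIRT1-/- livers, against 2.75 and 2.20 in SIRT1+/- livers (fall by 3.03, standard error 0.54, adjusted p = 0.0198). Slc17a8, a vesicular glutamate transporter, was at 1.16, 0.48, 0.35 and 0.64 in SIRT1-/- livers and at 3.52 and 3.33 in SIRT1+/- livers, a fall by 2.77 (standard error 0.43, adjusted p = 0.0105). In Slc17a8 too the SIRT1-/- libraries with Eif2s3y were above those with Xist. In none of these 3 genes did the genotypes overlap.

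**Figure D2:**
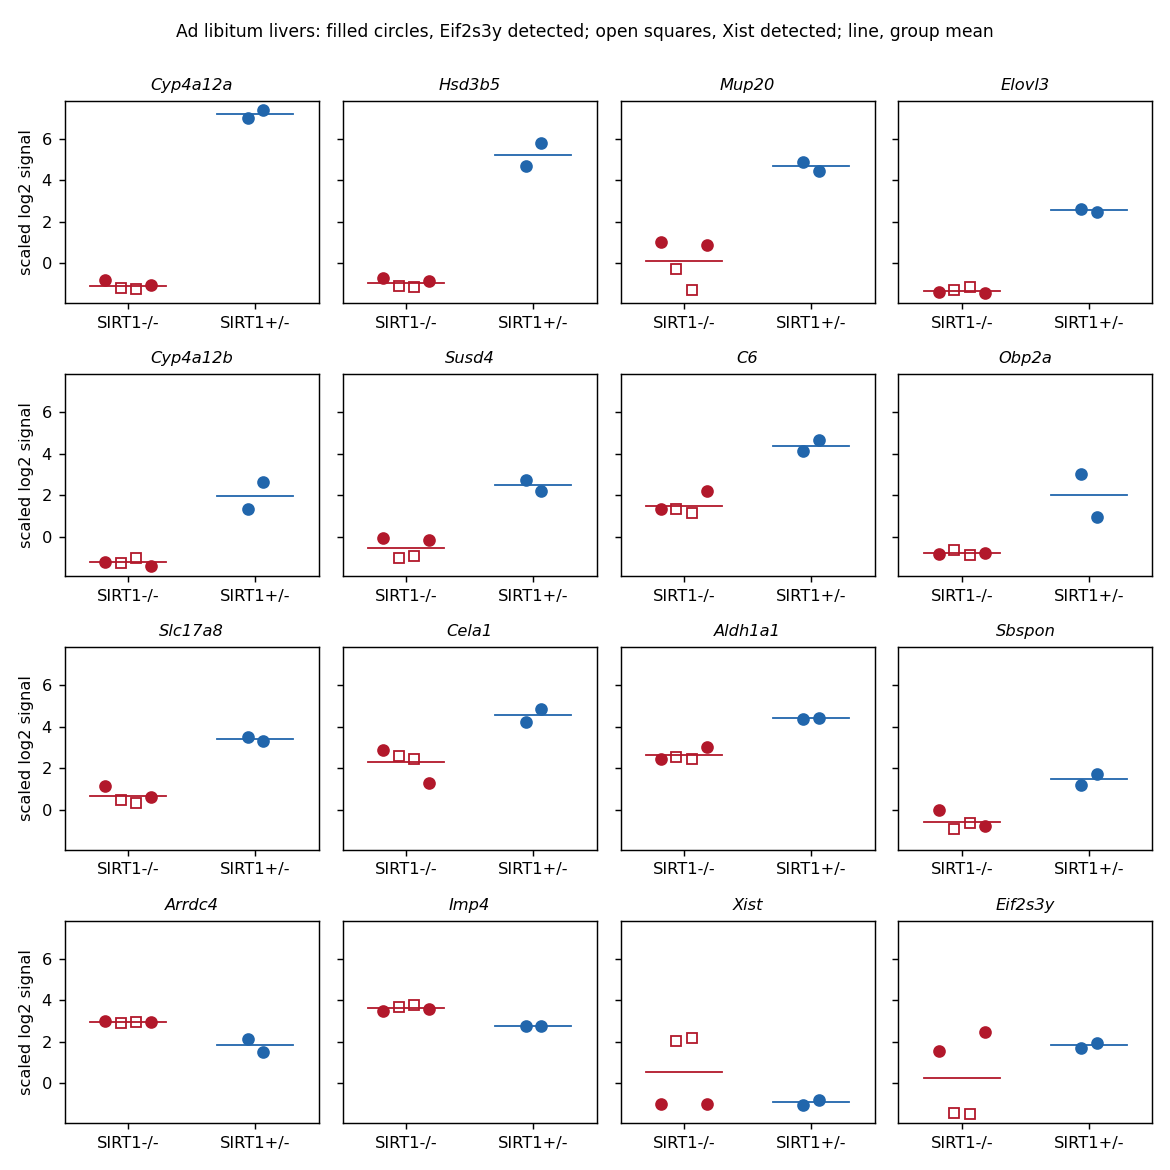
Scaled log2 signal (y) of 16 genes in each AL library, SIRT1-/- left and SIRT1+/- right; filled circles are libraries with Eif2s3y, open squares libraries with Xist, and lines are group means. All 4 SIRT1-/- libraries lie below both SIRT1+/- libraries for the 12 lower genes shown and above them for Arrdc4 and Imp4.

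The list of male-biased liver genes held 8 of the 22 called genes. Of its 34 members 30 are on the array and 26 were tested; all 8 were lower, against 0.223% and 0.0223% of all genes. All 26 had a negative difference, 23 had an unadjusted p under 0.05 on the lower side (3.21% of all genes), and the median difference was -2.27, against 0.04 for all genes (-2.28 with the 4 members undetected in SIRT1-/- livers at their bounds). The mean level over the 26 genes was 2.26, 1.43, 1.48 and 1.89 in SIRT1-/- livers, against 4.38 and 4.47 in SIRT1+/- livers, so that the SIRT1-/- libraries with Eif2s3y lay above those with Xist and below both SIRT1+/- libraries. In the libraries with Eif2s3y the median was -1.82, with 9 members called lower, and without SIRT1-/- replicates 1 and 4 in turn it was -2.69 and -2.30. The called members were Cyp4a12a, Hsd3b5, Mup20, Elovl3, Cyp4a12b, Susd4, the complement component gene C6 and Nudt7, a peroxisomal hydrolase of coenzyme A derivatives. Mup21, another urinary protein gene, had levels of 6.46, 1.77, 4.38 and 2.57 in SIRT1-/- livers, against 8.19 and 8.54 in SIRT1+/- livers, where it lay near the top of the arrays' range. Its difference of -4.57 was not called (standard error 1.07, adjusted p = 0.146). Mup5 had a difference of -3.68 (adjusted p = 0.0533), and Cyp2d9, a steroid hydroxylase, of -4.14 (adjusted p = 0.572), with levels of 5.24, 2.34, 0.58 and 4.75 in SIRT1-/- livers and of 7.04 and 7.71 in SIRT1+/- livers, the Xist libraries being lowest. Both were called in the libraries with Eif2s3y, Mup5 at -2.91 (adjusted p = 0.031) and Cyp2d9 at -2.38 (adjusted p = 0.0191). Urinary protein genes are near-identical, and their probes may read several of them. Mup1 is not analysed here.

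The female-biased list ran the other way without a call in all 6 libraries. Of 36 members 18 were tested, 16 had a positive difference and 6 had an unadjusted p under 0.05 on the higher side (3.6% of all genes), with 0 called and a median of 1.22 (0.92 with the 3 members undetected in SIRT1+/- livers at their bounds). The mean level over the list was 1.05, 2.14, 2.56 and 0.99 in SIRT1-/- livers, against 0.45 and 0.32 in SIRT1+/- livers, highest in the 2 libraries with Xist. In the libraries with Eif2s3y the median was 0.49, with 1 member called, Slc22a26. Slc22a26, an organic anion transporter, had levels of 1.60, 3.16, 3.64 and 1.29 in SIRT1-/- livers and of -1.28 and -1.07 in SIRT1+/- livers, in which it was not detected. It was at least 8.11-fold higher in SIRT1-/- livers (adjusted p = 0.266), and its adjusted p in the libraries with Eif2s3y was 0.0017. Cux2, a transcription factor of female mouse liver, had levels of -0.41, 1.30, 1.63 and -0.60 in SIRT1-/- livers and of -0.95 and -1.04 in SIRT1+/- livers, with the Xist libraries highest (adjusted p = 0.83). Cyp17a1, a steroid hydroxylase, and Nnmt, a nicotinamide methyltransferase, had differences of 2.66 and 2.68 and overlapped between the groups (adjusted p = 0.513 and 0.571). Each rested on which SIRT1+/- liver was used: without SIRT1+/- replicate 1 they were 0.93 and 4.96, and without SIRT1+/- replicate 2 they were 4.38 and 0.40.

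**Figure D3:**
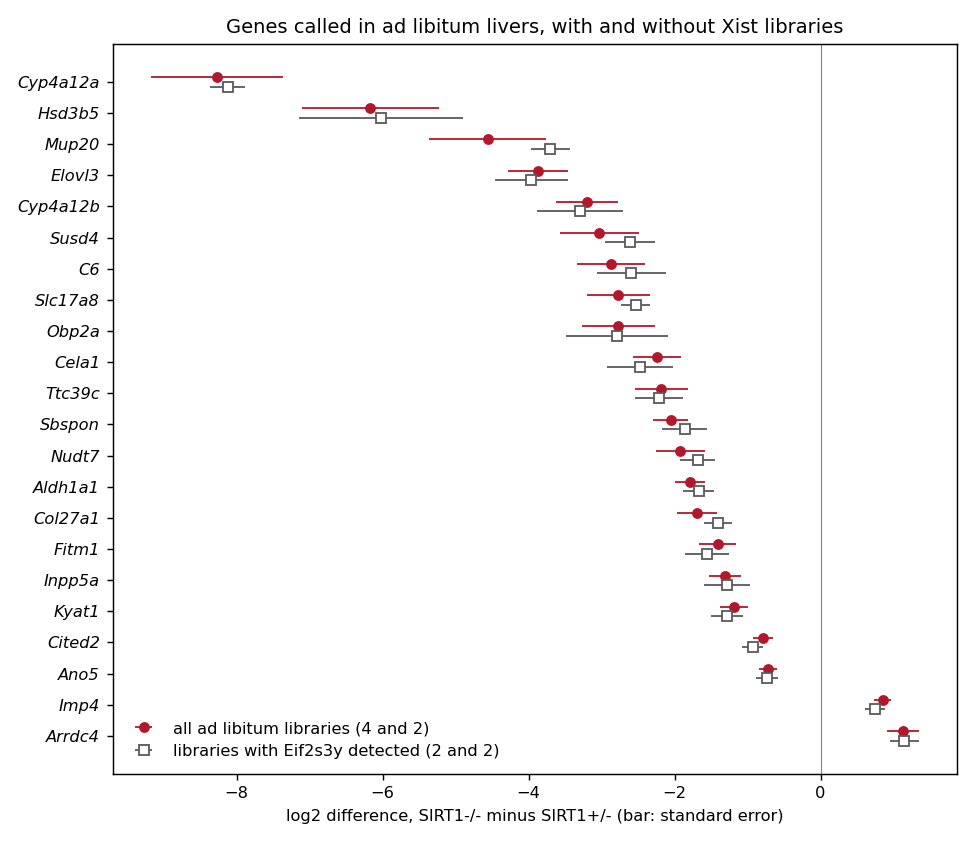
Log2 difference between SIRT1-/- and SIRT1+/- livers (x, bars are standard errors) of the 22 called genes in all AL libraries (filled circles, 4 and 2) and in the libraries with Eif2s3y detected (open squares, 2 and 2). All 22 genes lie on the same side of 0 in both, which was fixed in advance because their groups do not overlap in all AL libraries. Mup20 lies at -4.56 and -3.70 and Aldh1a1 at -1.79 and -1.67. The 8 genes undetected in SIRT1-/- livers, Cyp4a12a among them, are plotted at fitted values that are no measured folds.

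The 22 called genes were followed in the libraries with Eif2s3y. These libraries are part of those in which the genes were called, so they are no separate support. All 22 kept the direction of their difference, which was fixed in advance because their groups did not overlap in all AL libraries. Of the 22, 9 were called there: Cyp4a12a (adjusted p = 2.86e-06, limma), Mup20 and Slc17a8 (both 0.00168), Elovl3 (0.0239), Aldh1a1 (0.0241), Susd4 (0.0287), Col27a1 (0.031), Nudt7 (0.041) and Ttc39c (0.0433). The remaining 13 had adjusted p values of 0.0529 to 0.239 there. Hsd3b5, undetected in both SIRT1-/- libraries, was among the 13 (adjusted p = 0.108).

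The doubted SIRT1-/- replicate 1 was set against the other libraries. Without it 24 genes were called, 19 of them among the 22. For 20 of the 24 its level was nearer to the mean of the other 3 SIRT1-/- libraries than to that of the SIRT1+/- libraries, and it was nearer to SIRT1+/- for Cyp2u1, Mup21, Ociad2 and Thrsp. The same count was 17 of 19 for SIRT1-/- replicate 2, 19 of 21 for replicate 3 and 25 of 30 for replicate 4, each set against the genes called without it. Over all genes tested, replicate 1 correlated at 0.973, 0.976 and 0.949 with SIRT1-/- replicates 2, 3 and 4. Its correlations with the SIRT1+/- libraries were 0.974 and 0.975. With replicate 4 aside, these values do not set it nearer to either genotype. With replicate 1 counted as SIRT1+/-, 0 genes were called by limma and 735 had an unadjusted p under 0.05.

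Lower genes outside the male-biased list held enzymes and secreted proteins. Aldh1a1, which oxidizes retinal to retinoic acid, had levels of 2.46, 2.55, 2.46 and 3.03 in SIRT1-/- livers, against 4.38 and 4.44 in SIRT1+/- livers, and fell by 1.79 (standard error 0.21, adjusted p = 0.000666, limma). Sbspon, which encodes a somatomedin B and thrombospondin domain protein, was at 0.02, -0.89, -0.62 and -0.77 in SIRT1-/- livers, against 1.22 and 1.75 in SIRT1+/- livers (fall by 2.05, standard error 0.24, adjusted p = 0.000666). Neither gene set the Xist libraries apart from the others. Kyat1, a kynurenine aminotransferase, fell by 1.19 (standard error 0.19, adjusted p = 0.0114), and its levels were 4.44, 4.26, 4.57 and 4.03 in SIRT1-/- livers, against 5.58 and 5.46 in SIRT1+/- livers.

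C6, which joins the membrane attack complex, had levels of 1.35, 1.32, 1.12 and 2.20 in SIRT1-/- livers, against 4.11 and 4.63 in SIRT1+/- livers, and fell by 2.87 (standard error 0.47, adjusted p = 0.0114). Nudt7 was at 6.24, 5.72, 5.50 and 5.94 in SIRT1-/- livers and at 7.80 and 7.74 in SIRT1+/- livers (fall by 1.92, standard error 0.34, adjusted p = 0.0198). In both genes the SIRT1-/- libraries with Eif2s3y lay above those with Xist, for C6 by as little as 1.35 against 1.32. Second probes of C6, Kyat1 and Ttc39c, a gene with tetratricopeptide repeats, were also called among all 12816 probes, with differences of -2.59, -1.23 and -2.14, and that of Nudt7 was not (difference -2.60, adjusted p = 0.337). Ttc39c itself fell by 2.18 (standard error 0.36, adjusted p = 0.0114).

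Cela1, an elastase of the pancreas that is also measured in liver here, fell by 2.24 (standard error 0.33, adjusted p = 0.00638, limma), with levels of 2.88, 2.58, 2.47 and 1.29 in SIRT1-/- livers, against 4.24 and 4.86 in SIRT1+/- livers. The other 4 pancreatic acinar markers tested, Amy2a5, Cela2a, Cela3b and Ctrb1, had levels of -0.86 to 0.64 in all 6 libraries. The remaining called genes had smaller or bounded falls. The collagen gene Col27a1 fell by 1.69 (standard error 0.27, adjusted p = 0.0114) and Inpp5a, an inositol phosphatase, by 1.31 (standard error 0.22, adjusted p = 0.0138). Fitm1, a lipid droplet protein, Cited2, a transcriptional co-regulator, and Ano5, of the anoctamin family, were undetected in SIRT1-/- livers and at least 1.71-fold, 1.5-fold and 1.17-fold lower (adjusted p = 0.0228, 0.0198 and 0.0114).

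The rises were few. Imp4, a component of the U3 small nucleolar ribonucleoprotein that processes ribosomal RNA, had levels of 3.47, 3.68, 3.76 and 3.56 in SIRT1-/- livers, against 2.77 and 2.76 in SIRT1+/- livers, and rose by 0.85 (standard error 0.12, adjusted p = 0.00638, limma). A second, dimmer probe of Imp4 had a difference of 0.56 and was not called (adjusted p = 0.529). Arrdc4, an arrestin-domain protein known to respond to glucose, was at 3.01, 2.91, 2.96 and 2.95 in SIRT1-/- livers, against 2.12 and 1.53 in SIRT1+/- livers, and rose by 1.13 (standard error 0.22, adjusted p = 0.0402). In 12 of the 18 fits that each left out 1 library Arrdc4 was no longer called (highest adjusted p = 0.753).

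The 250 bases before the transcription start of both genes that rose, of Cited2 and of Hsd3b5 are shown, from RefSeq on GRCm38.p6, because the first 3 hold the E-box CACGTG and the gene with the widest fall among those with a sequence does not. Capitals mark the E-box.
Arrdc4 (chr7:68749239-68749488, minus strand): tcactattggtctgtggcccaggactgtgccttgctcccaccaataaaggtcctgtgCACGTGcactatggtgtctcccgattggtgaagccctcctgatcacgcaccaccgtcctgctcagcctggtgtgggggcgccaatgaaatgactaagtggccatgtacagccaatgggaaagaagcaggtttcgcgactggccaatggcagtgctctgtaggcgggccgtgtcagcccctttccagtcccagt
Imp4 (chr1:34439579-34439828, plus strand): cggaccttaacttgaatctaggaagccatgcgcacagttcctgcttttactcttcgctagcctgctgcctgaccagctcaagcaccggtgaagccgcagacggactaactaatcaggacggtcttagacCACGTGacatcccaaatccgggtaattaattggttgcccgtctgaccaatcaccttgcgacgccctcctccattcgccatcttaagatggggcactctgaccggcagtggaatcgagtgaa
Cited2 (chr10:17722978-17723227, plus strand): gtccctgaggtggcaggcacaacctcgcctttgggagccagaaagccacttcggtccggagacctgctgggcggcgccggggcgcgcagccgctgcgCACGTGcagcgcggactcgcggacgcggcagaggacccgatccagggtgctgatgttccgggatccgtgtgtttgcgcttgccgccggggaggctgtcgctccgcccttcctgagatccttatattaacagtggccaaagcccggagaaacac
Hsd3b5 (chr3:98645535-98645784, minus strand): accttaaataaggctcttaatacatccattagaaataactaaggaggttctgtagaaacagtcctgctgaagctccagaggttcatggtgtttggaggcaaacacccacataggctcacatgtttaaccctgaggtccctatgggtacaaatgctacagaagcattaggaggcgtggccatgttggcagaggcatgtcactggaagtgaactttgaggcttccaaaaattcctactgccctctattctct
Of the 22 called genes 16 had such a window in the table (21 windows). The palindrome CACGTG was in 3 of the 21 windows, each of a different gene, and in 6.02% of all 32851 windows, TTCNNNGAA, the letters of a STAT5 site, in 1 (7.02% of all), and TATAAA in 2 (12.4% of all). Both strands were searched, and a match is a description of sequence only. No window was held for Cyp4a12a, Cyp4a12b, Elovl3, Mup20, Sbspon and Ttc39c.

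The 8 genes of next smallest p on the higher side whose libraries did not overlap were not called. Gtpbp3, a mitochondrial transfer RNA modifier, had levels of 1.44, 1.40, 1.39 and 1.58 in SIRT1-/- livers and of 0.77 and 0.26 in SIRT1+/- livers (difference 0.94, standard error 0.19, adjusted p = 0.0516, limma). Cyp4a14, an omega-hydroxylase of fatty acids induced by PPAR alpha, had levels of 6.02, 6.46, 3.47 and 4.93 in SIRT1-/- livers and of 0.17 and 2.24 in SIRT1+/- livers (difference 4.01, standard error 0.86, adjusted p = 0.0828). Its difference was the highest both in the female-biased list and in that of PPAR alpha targets beyond oxidation. Slc39a4, a zinc importer, had a difference of 2.87 (adjusted p = 0.0625), with levels of 2.75 to 4.00 in SIRT1-/- livers and of 1.04 and 0.24 in SIRT1+/- livers. Metrn, a secreted neurotrophic factor, Igf2, a growth factor, Rcan3, a calcineurin regulator, and Rhbdf1, an inactive rhomboid protein, had differences of 0.55 to 1.08 and adjusted p values of 0.0587 to 0.178. Cyp4f16, a P450 enzyme not detected in SIRT1+/- livers, was at least 1.71-fold higher in SIRT1-/- livers (adjusted p = 0.178).

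Lipid synthesis ran lower without a call. Of 29 genes of fatty acid and triglyceride synthesis 25 were tested, and 24 of these had a negative difference. The median was -0.56, 11 had an unadjusted p under 0.05 on the lower side (3.21% of all genes) and 0 were called. Thrsp, a regulator of lipogenesis, had levels of 5.82, 2.94, 3.87 and 3.4 in SIRT1-/- livers and of 6.67 and 5.76 in SIRT1+/- livers (difference -2.21, adjusted p = 0.341), and overlapped through SIRT1-/- replicate 1. Aacs, an acetoacetyl-CoA synthetase, had levels of 4.90, 2.63, 3.11 and 3.47 in SIRT1-/- livers and of 5.35 and 5.59 in SIRT1+/- livers (difference -1.94, adjusted p = 0.334). The NADPH-producing malic enzyme Me1 and the elongase Elovl6 had differences of -1.21 and -1.15 (adjusted p = 0.324 and 0.785). Without SIRT1-/- replicate 1 the median was -0.76, with Thrsp called (adjusted p = 0.0338), and in the libraries with Eif2s3y it was -0.52 with 0.

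**Figure D4:**
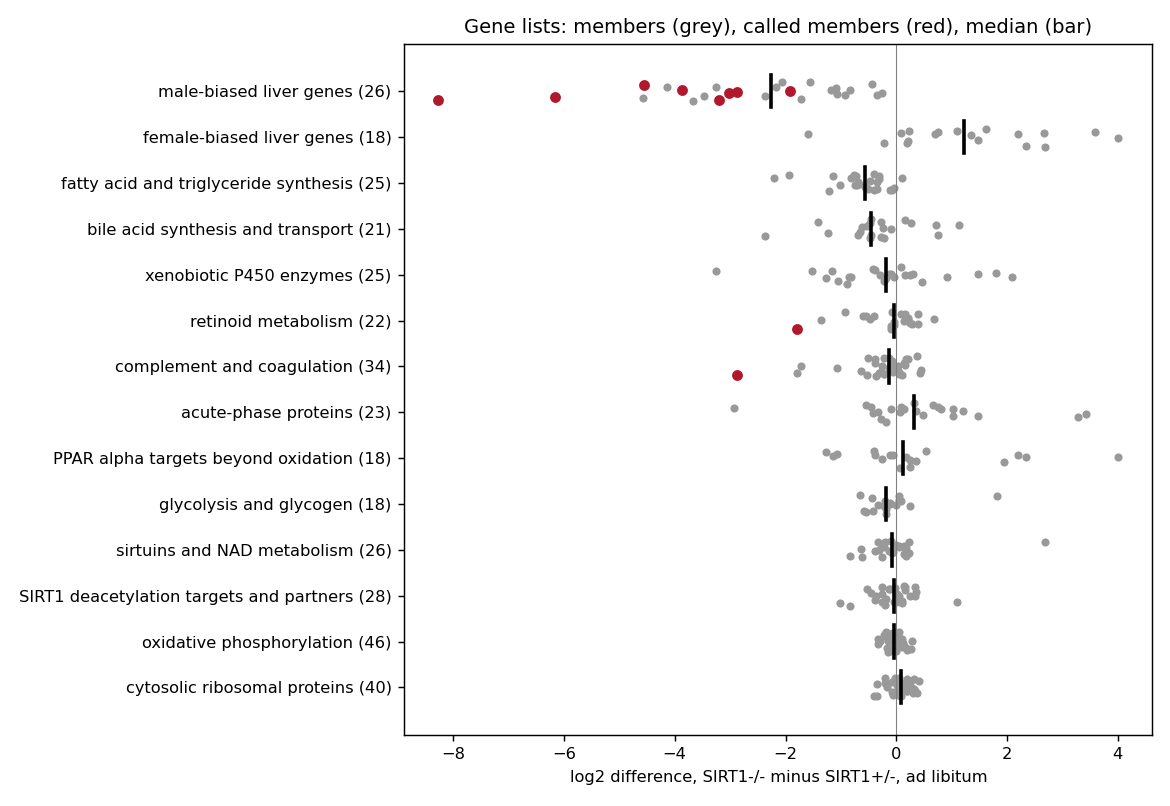
Log2 difference between SIRT1-/- and SIRT1+/- livers on the AL diet (x) of the tested members of 14 gene lists (rows, number of members in brackets), with called members in red and the list median as a bar. The male-biased list has a median of -2.27 with 8 called members, the female-biased list 1.22 with 0, and the lists of sirtuins, SIRT1 targets, oxidative phosphorylation and ribosomal proteins have medians of -0.07, -0.04, -0.04 and 0.09.

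The lists closest to SIRT1 itself held no call. Over 26 tested genes of the sirtuins and of NAD metabolism, Nnmt among them, the median was -0.07, and 1 gene in each direction had an unadjusted p under 0.05. Over 28 tested targets and partners of SIRT1 the median was -0.04, with 2 such genes in each direction. Ppargc1a, the coactivator PGC-1alpha, had levels of 2.13, 2.96, 2.38 and 2.05 in SIRT1-/- livers and of 1.26 and 1.32 in SIRT1+/- livers (difference 1.09, standard error 0.35, adjusted p = 0.427, limma), without overlap. The lipogenic factor Srebf1, the antioxidant factor Nfe2l2 and the bile acid receptor Nr1h4 had differences of -1.01, -0.83 and -0.53 (adjusted p = 0.785, 0.262 and 0.785). In NAD metabolism, Afmid, Kynu and Haao of the kynurenine pathway had differences of -0.84, -0.64 and -0.62 (adjusted p = 0.726 to 0.831). Without SIRT1-/- replicate 4 those of Afmid and Haao were -0.22 and -0.28, and in the libraries with Eif2s3y that of Afmid was -1.82.

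Irs2, an adaptor of the insulin receptor, had levels of 3.3, 3.5, 2.82 and 2.8 in SIRT1-/- livers and of 1.08 and 1.51 in SIRT1+/- livers. The groups did not overlap, and the difference of 1.81 (standard error 0.49) was not called (adjusted p = 0.259, limma). It was the 1 member with an unadjusted p under 0.05 among 18 tested genes of glycolysis and glycogen, of which 13 had a negative difference (median -0.18). Gapdh, Pklr and Pygl of that list had differences of -0.65, -0.59 and -0.55 (adjusted p = 0.785 to 0.851).

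Among detoxification and lipid oxidation genes the differences went both ways. Of 25 xenobiotic P450 enzymes tested 0 were called in all 6 libraries, and an unadjusted p under 0.05 was reached by 3 on the higher side (3.6% of all genes) and 8 on the lower side (3.21%). Cyp2f2, which is also male-biased and periportal, had levels of 3.5, 3.26, 5.29 and 3.70 in SIRT1-/- livers and of 7.26 and 7.14 in SIRT1+/- livers (difference -3.26, standard error 0.72, adjusted p = 0.102, limma). Cyp2f2 was the 1 member of the list called in the libraries with Eif2s3y, at -3.60 (adjusted p = 0.0023). Cyp3a11 and Cyp2c39 had differences of 2.09 and 1.80, and Cyp4v3 of -1.53 (adjusted p = 0.259 to 0.489). Among 18 tested targets of PPAR alpha beyond oxidation, with a median of 0.12, the thioesterases Acot4 and Acot3 had differences of 2.35 and 2.20, and Cyp4a31 of 1.94 (adjusted p = 0.334, 0.794 and 0.588).

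In the retinoid list Aldh1a1 was the 1 member called of 22, and Adh4, an alcohol dehydrogenase, had a difference of -1.36 (adjusted p = 0.146). Aldh1a7 and Rdh9 had differences of -0.93 and 0.68 (adjusted p = 0.927 and 0.852). In complement and coagulation, C6 was the 1 member called of 34, and the membrane attack components C9, C8b and C8a had differences of -1.80, -1.72 and -1.08 (adjusted p = 0.489, 0.334 and 0.691). In the growth hormone and IGF1 list, 0 of 16 were called and the median was 0.21. Igfbp2, a binding protein of IGF1, had levels of 5.29, 5.30, 5.19 and 3.14 in SIRT1-/- livers and of 3.41 and 3.43 in SIRT1+/- livers (adjusted p = 0.588), the 1 low value being that of replicate 4. The growth hormone receptor gene Ghr had a difference of -0.69 and Socs3, an inhibitor of cytokine signalling, of 1.03 (adjusted p = 0.334 and 0.83).

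Acute-phase genes varied within the SIRT1-/- group. The metallothionein Mt1 had levels of 4.97, 6.27, 8.28 and 7.12 in SIRT1-/- livers and of 2.96 and 3.51 in SIRT1+/- livers (difference 3.42, standard error 0.97, adjusted p = 0.306, limma). The iron-sequestering lipocalin Lcn2 was at 3.69, 4.34, 5.53 and 7.16 in SIRT1-/- livers and at 3.97 and -0.17 in SIRT1+/- livers (adjusted p = 0.513). Saa3, a serum amyloid A gene, was at 0.54, -0.01, 0.36 and 6.99 in SIRT1-/- livers, high in replicate 4 alone, and at 0.89 and 0.08 in SIRT1+/- livers. Saa4 was detected in 2 of 4 SIRT1-/- libraries, those with Xist, and in both SIRT1+/- libraries (difference -2.93, adjusted p = 0.752). Saa4 was called lower in the libraries with Eif2s3y, where neither SIRT1-/- library had it detected (adjusted p = 0.0017). The list's median was 0.32 over 23 genes, and 0.05 without replicate 4.

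Of the 34 lists of gene functions 31 held no called gene, and 26 held none in the libraries with Eif2s3y. Among these, 16 of 21 tested genes of bile acid synthesis and transport and 17 of 20 of the apolipoproteins had a negative difference (medians -0.45 and -0.39), and 23 of 29 interferon-stimulated genes a positive one (median 0.20). Marker lists were read for the cell types a liver sample can hold. Of 10 hepatocyte markers 7 were tested, and Trf, Ttr, Apoa1 and Cps1, plasma proteins and a urea cycle enzyme, had levels of 6.57 to 8.60 in every library, while the albumin probe (Alb) was at -0.76 to -0.01. The means over the 7 markers were 5.68, 5.66, 6.03 and 5.14 in SIRT1-/- livers and 5.88 and 5.96 in SIRT1+/- livers. Of these 7 markers 6 had a negative difference and 0 were called. Their median was -0.4, against -0.63 in the libraries with Eif2s3y and -0.21 without SIRT1-/- replicate 4. Medians of the marker lists of Kupffer cells (11 tested), endothelium (11) and stellate cells (8) were 0.21, 0.15 and 0.07. Of the 3 neutrophil markers tested, S100a8 had a difference of 1.64 (adjusted p = 0.605), and S100a9, not detected in SIRT1+/- livers, was at least 1.75-fold higher in SIRT1-/- livers (adjusted p = 0.73), both with the highest level in SIRT1-/- replicate 4. The part of these cells in the results was not tested.

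The same genotypes were then compared on the CR diet, in 6 other livers, to see whether the differences of the AL livers were present there. In CR SIRT1-/- minus CR SIRT1+/- livers limma called 0 of 8950 genes (0%), with 456 at an unadjusted p under 0.05 (5.09%). Of the 20 genes lower in AL SIRT1-/- livers, 18 had a negative difference on CR and 12 an unadjusted p under 0.05 on the lower side (2.09% of all genes). The median fitted difference of these 20 was -0.78 on CR and -2.21 on AL, the groups in which they had been chosen. Xist was detected in CR SIRT1-/- replicates 2 and 3 and in CR SIRT1+/- replicate 2. Cyp4a12a had levels of -0.93, -1.06 and -1.18 in CR SIRT1-/- livers and of 3.92, -1.07 and 3.63 in CR SIRT1+/- livers. It was thus undetected in all 3 CR SIRT1-/- livers, replicate 1 with Eif2s3y included, and in the 1 CR SIRT1+/- liver with Xist. Elovl3 had levels of -1.41, -1.40 and -1.52 in CR SIRT1-/- livers, where it was undetected, and of 0.73, -1.45 and -0.91 in CR SIRT1+/- livers. In the libraries with Eif2s3y (1 CR SIRT1-/- and 2 CR SIRT1+/-, the lone library taken to vary like the other groups), 3 genes were higher and 5 lower.

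The genes of smallest p on CR were others. Ppat, the first enzyme of purine synthesis, had a difference of 1.23 (standard error 0.20, adjusted p = 0.177, limma) and Pptc7, a mitochondrial phosphatase, of 1.43 (standard error 0.25, adjusted p = 0.185). Igf2, Nnt, the mitochondrial transhydrogenase, and Morc3, a chromatin ATPase, had differences of 0.59, 0.56 and 0.76 (adjusted p = 0.277 each). C57BL/6J mice are known to carry a deletion in Nnt, and its levels were -0.02, -0.22 and -0.06 in CR SIRT1-/- livers, against -0.72, -0.73 and -0.53 in CR SIRT1+/- livers. On AL Igf2 had levels of 0.38, 0.19, 0.09 and 0.31 in SIRT1-/- livers and of -0.35 and -0.26 in SIRT1+/- livers, a difference of 0.55 that was not called (adjusted p = 0.102).

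**Figure D5:**
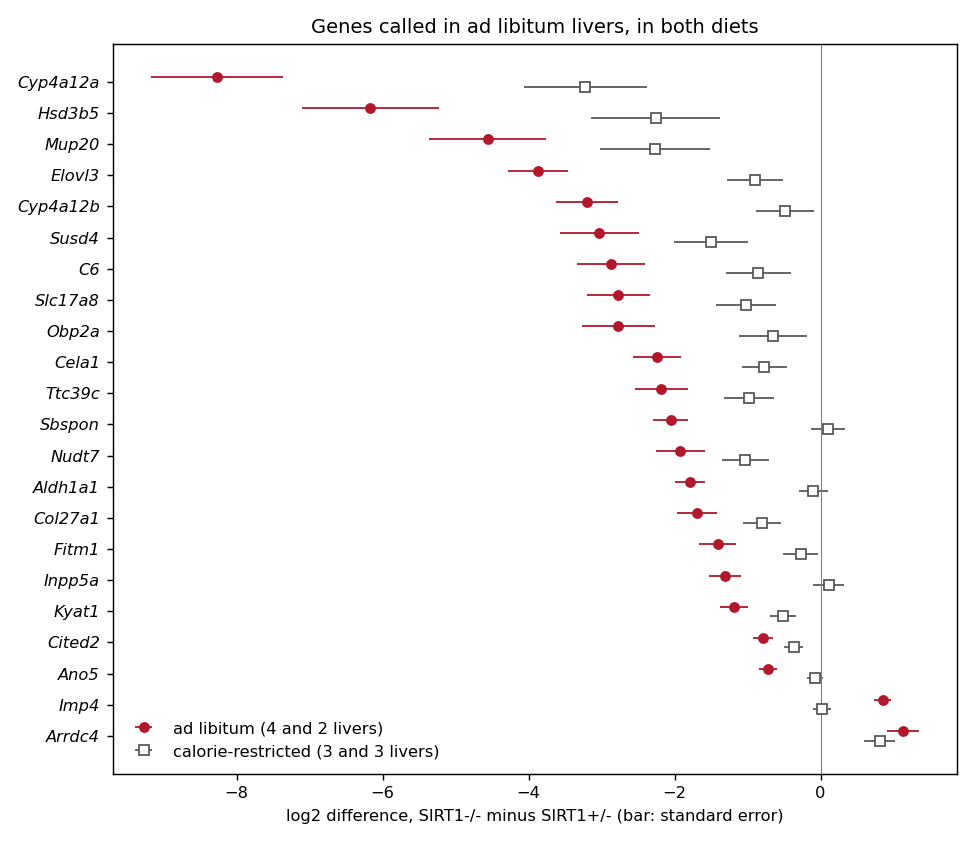
Log2 difference between SIRT1-/- and SIRT1+/- livers (x, bars are standard errors) of the 22 genes called on AL, on AL (filled circles, 4 and 2 livers) and on CR (open squares, 3 and 3 livers). Slc17a8 lies at -2.77 on AL and -1.02 on CR, and Aldh1a1 and Sbspon at -1.79 and -2.05 on AL and at -0.10 and 0.10 on CR.

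The difference between the diets was tested in itself, as an interaction. It was called for 0 of 8950 genes (0%), with 280 at an unadjusted p under 0.05 (3.13%, of which 142 genes positive, 1.59%, and 138 negative, 1.54%). The 22 genes were chosen on the AL difference, which the interaction contains, so no count of them is given. The smallest p was that of Sbspon, whose difference was -2.05 on AL and 0.10 on CR (interaction -2.15, standard error 0.33, adjusted p = 0.0731, limma). On CR its levels were -0.08, -0.57 and -0.43 in SIRT1-/- livers and -0.19, -0.55 and -0.64 in SIRT1+/- livers. Aldh1a1 had an interaction of -1.68 (adjusted p = 0.121), with CR levels of 3.44, 3.12 and 3.56 in SIRT1-/- livers and of 3.73, 3.22 and 3.47 in SIRT1+/- livers. Imp4 and Fn3krp, a kinase of glycated proteins, had interactions of 0.84 and -1.15 (adjusted p = 0.388 each). Elovl3 was also among the 5 of smallest p (adjusted p = 0.234), but it was undetected in SIRT1-/- livers on both diets, and no size of the difference between diets can be given.

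The AL SIRT1+/+ livers give a further set of levels, in a comparison that shares the SIRT1-/- or SIRT1+/- libraries with the one above. The genes named next had been called through the same SIRT1-/- libraries, so their calls against SIRT1+/+ are no separate support. Cyp4a12a had levels of 7.27, 6.64 and 6.94 in AL SIRT1+/+ livers, Elovl3 of 1.89, 2.41 and 1.34, Aldh1a1 of 4.51, 4.20 and 4.37 and Imp4 of 2.85, 2.74 and 2.82. For SIRT1-/- minus SIRT1+/+ all 4 were called (adjusted p = 0.000287, 0.000518, 0.000369 and 0.00193, limma), with differences of -1.74 for Aldh1a1 and 0.81 for Imp4, while Cyp4a12a and Elovl3 were undetected in SIRT1-/- livers. For SIRT1+/- minus SIRT1+/+ the differences were 0.25, 0.67, 0.05 and -0.04. In SIRT1-/- minus SIRT1+/+ livers 34 genes were called, and in SIRT1+/- minus SIRT1+/+ livers 0, with 99 at an unadjusted p under 0.05. All 3 SIRT1+/+ libraries had Eif2s3y detected.

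The calls rest on 2 SIRT1+/- livers. With only the compared groups in the fit, Cyp4a12a, Elovl3, Hsd3b5 and Slc17a8 stayed called, and Aldh1a1 and Sbspon did not. Sbspon was also not called in the libraries with Eif2s3y (adjusted p = 0.0771, limma). Only Cyp4a12a, Elovl3, Aldh1a1 and Sbspon were called in each of the 18 fits that left out 1 library (highest adjusted p = 0.0123, 0.0123, 0.0217 and 0.0361, limma), and 6 of the 22 remained without SIRT1+/- replicate 1 and 6 without SIRT1+/- replicate 2. Calls of Mup20, Susd4, Nudt7, Obp2a and Fitm1 were also lost without 1 or more of SIRT1-/- replicates 1 to 3, with highest adjusted p values over the 18 fits of 0.314, 0.431, 0.313, 0.754 and 0.49.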

How the data were processed

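Liver RNA was hybridized to Illumina MouseRef-8 v2 beadchips, 1 array per library. BeadStudio 3.4.0 gave the signal intensity that the authors deposited for each probe, together with a detection p-value. They also deposited a score, the z-transformed log intensity of each array, and scores computed here from the intensities met it within 5.0e-10. These scores were multiplied by the mean SD over arrays of the log2 values of the deposited intensities (1.84). Of 25697 probes 23978 had 1 gene symbol in the annotation used (16593 symbols), and the 1719 unnamed probes were left out. Probes detected (p under 0.05) in 2 or more of the 18 libraries entered, and the brightest stood for each symbol, which left 8950 genes.

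The 6 group means of 18 libraries were fitted with limma 3.58.1 (R 4.3.3). Tests were two-sided, p-values were adjusted over all genes by the Benjamini-Hochberg method, and a gene was called below 0.05. The scripts were tested on simulated data. Promoter sequences came from RefSeq (GRCm38.p6). Python 3.11.15 and pandas 2.3.3 made the tables and matplotlib 3.10.9 the figures. Named genes are Sirt1, sex chromosome transcripts, genes the study names, the 10 largest called falls and rises without overlap (filled up by smallest p), up to 4 members per list and the 5 genes of smallest p on CR and for the interaction. The other called genes, Mup21, Mup5, Cyp2d9, Cux2, the cell type markers and the genes named with a left-out library or only for their call in the libraries with Eif2s3y were named after their values were seen. The members, lists and tests were chosen with earlier results of these data known. Nothing in the labels says which arrays shared a beadchip, and p-values measure the spread between these libraries. Alternatives were other normalizations, filters, probes and fits, array weights, a replicate block, signals not scaled by the array SD, Y-linked transcripts as a covariate and libraries left out. The replicate numbers were checked as pairs, and deviations of same-numbered AL libraries correlated at -0.091 and 0.027. Deviations of 2 SIRT1+/- libraries from their mean mirror each other, so this check cannot tell paired numbers from unpaired ones. The main fit used the numbers as sample names only.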

Additional observations from a re-analysis of the deposited data

Results flagged for a closer look

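In 4 of 82 genes tested for it, 1 of the 4 AL SIRT1-/- libraries lay far from the other 3 by Dixon's ratio, which chance exceeds in about 1 in 20 groups. The count is thus about what chance alone would give. Saa3 had a level of 6.99 in SIRT1-/- replicate 4, against -0.01 to 0.54 in the others, and Igfbp2 a level of 3.14 in the same library, against 5.19 to 5.30. C8b had a level of 1.82 in SIRT1-/- replicate 2, against 3.47 to 3.74 in the others, and Pptc7 a level of 4.14 in that library, against 3.16 to 3.27. None of the 4 genes was called between SIRT1-/- and SIRT1+/- livers by limma (adjusted p = 0.88, 0.588, 0.334 and 0.256).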

How the results depend on the processing

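For SIRT1-/- minus SIRT1+/- livers on AL, 22 genes were called, and 20 to 29 under other normalizations, filters and probe choices, with Y-linked transcripts as a covariate and in the libraries with Eif2s3y. The libraries with Eif2s3y shared only 9 of their 25 calls with the 22, and the other settings of this range shared 19 to 22. With only the compared groups in the fit 4 were called, with array quality weights 58, with SIRT1-/- replicate 1 counted as SIRT1+/- 0, and by a Z ratio beyond 1.5 with an unadjusted p under 0.05 322. Leaving out 1 library gave 7 to 30 calls, 7 without SIRT1+/- replicate 1, 11 without SIRT1+/- replicate 2 and 30 without SIRT1-/- replicate 4. The replicate block gave 24 calls (2 higher, 22 lower), 18 of them among the 22. Settings added after seeing the data were the libraries with Eif2s3y without SIRT1-/- replicate 1, where the 1 SIRT1-/- library left is replicate 4 and is taken to vary like the other groups (770 calls), and the covariate without SIRT1-/- replicate 1 (21 calls). On CR 0 genes were called, 0 to 6 with 1 library left out (6 without CR SIRT1+/- replicate 2) and 8 in the libraries with Eif2s3y, a setting also added later. For the interaction 0 were called, 0 to 5 with 1 library left out (5 without CR SIRT1+/- replicate 1), and 2 each with array weights and with the covariate; the block gave 0 for both. The cause of these shifts was not tested.

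Direction turned in genes that were not called. In the libraries with Eif2s3y, Xist and Eif2s3y had differences of -0.07 and 0.18, and without SIRT1-/- replicate 1 as well, of -0.09 and 0.63, with Igfbp2 at -0.29, Acot3 at -0.71, Aldh1a7 at 0.41 and C8a at 0.33. With the covariate Eif2s3y had 0.21, and 0.06 without SIRT1-/- replicate 1. Rdh9 had -0.22 with SIRT1-/- replicate 1 counted as SIRT1+/-. Saa3 had -0.25 under the replicate block and, with 1 library left out, -0.19 (without SIRT1-/- replicate 4) to 2.14 (without SIRT1-/- replicate 2). On signals not scaled by the array SD, added after seeing the data, the bounds of Cyp4a12a, Elovl3 and Slc22a26 were 165, 7.95 and 7.49, against 223, 8.89 and 8.11. Of 60 named genes that were not called, 25 moved by over 1.5 times when 1 AL SIRT1-/- or SIRT1+/- library was left out. Probes at background limit falls to lower bounds, and 2 SIRT1+/- livers limit every estimate.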
